A study of Mus musculus with 6 samples.

Results

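This account follows 49 genes of mitosis, the spindle and the kinetochore through 6 mouse RNA libraries. The members were listed by name for their role in dividing cells, and they are 49 of the 35856 genes with at least 1 sequence in the quantified transcript set. They cover 10 steps or complexes, from the kinase that starts mitosis to the proteins that separate the daughter cells. All 49 were abundant enough to be tested, with 327 to 45124 estimated counts per library.

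The study asked how loss of Mdm2, the ubiquitin ligase that restrains p53, changes gene expression in cells that lack p53. Per the labels, all cells were Mdm2 fl/fl p53-/-, so the vehicle controls carry the floxed allele and the p53 deletion too. They came from a T cell lymphoma and a sarcoma of such mice in short-term culture, and from fibroblasts of adult ear tissue, and a retrovirus brought in either GFP only or GFP plus CreERT2, the Cre enzyme that works once 4-hydroxytamoxifen (4-OHT) binds it. Cells received 4-OHT or its vehicle, ethanol, for 6 h (lymphoma) or 48 h (sarcoma and fibroblasts). Each of the 3 cell type labels has 1 library labelled Mdm2 deleted (4-OHT) and 1 labelled vehicle (ethanol). The labels leave unsaid which virus each library's cells had taken up, how many mice or cultures were used, and their strain and exact age. No library is labelled as 4-OHT without Cre, so deletion and 4-OHT cannot be told apart.

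Libraries held 26243064 to 37517726 estimated counts. The values do not bear out the labels in 2 ways, so each library is called by its label only. Mdm2 RNA showed no drop where deletion is labelled, with 30.5, 31.1 and 31.1 CPM (TMM-scaled counts relative to library size) for the labels fibroblast, lymphoma and sarcoma against 28.4, 28.0 and 28.5 CPM in the libraries labelled vehicle (log2 difference 0.13, SE 0.05, adjusted p = 0.0539, edgeR quasi-likelihood test). The Mdm2 values are sums over the whole gene, and the floxed part was not examined on its own. They therefore cannot show whether that part was lost. T cell markers were at or near 0 in all 6 libraries, those labelled lymphoma included. The 7 T cell genes summed to at most 0.108 CPM, and Cd3d, Cd3e and Cd247 were at 0. Fibroblast markers were high everywhere, at 13140 to 13400 CPM in sum in the libraries labelled deleted and 20594 to 21020 CPM in those labelled vehicle, and 7 of 8 fell between the arms. Leukocyte and macrophage markers rose for 3 of 6 (7.18 to 9.25 against 4.66 to 5.26 CPM in sum) and keratinocyte and epithelial markers for 2 of 6 (23.7 to 25.8 against 9.05 to 10.1 CPM). Endothelial markers rose for 1 of 4 (0.916 to 1.37 against 0.176 to 0.292 CPM), and of 9 muscle markers none was called, with Myod1, Myog, Myh8, Ckm and Pax7 at 0. Only 8 fibroblast, 3 leukocyte and macrophage, 3 keratinocyte and epithelial, 1 endothelial and 1 muscle marker were abundant enough to be tested, and no T cell marker was. Of all genes tested, 25% rose and 24.6% fell (edgeR, adjusted p under 0.05). What part these marker differences have in the results below was not tested.

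Mitosis is driven by the kinase CDK1 bound to cyclin A or B, which the phosphatases of the CDC25 family switch on. Spindle microtubules attach to chromosomes at the kinetochore, and a checkpoint keeps the anaphase promoting complex off until all are attached. That complex then marks securin and cyclin B for destruction, which frees separase to cut the cohesin between sister chromatids. Many of the genes involved are transcribed mainly late in the cell cycle. Their promoters commonly carry CCAAT boxes, which the factor NF-Y binds, and a short element called the CHR, which the MuvB complex binds through LIN54. With other partners MuvB forms the repressor DREAM in resting cells, or an activator with B-MYB (Mybl2) and FOXM1 in late cycle.

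The promoters of the members show those letters, and 3 are printed as examples of members that hold both boxes upstream of the start. Of the members in the promoter table, both lay upstream in 6 of 20 that fell, 8 of 16 not called (Ube2c and Espl1 among them) and 1 of 4 that rose (Ect2). Each sequence is the 250 bases upstream of the RefSeq start in GRCm38.p6, read 5′ to 3′ on the gene's strand. Capitals mark CCAAT (or ATTGG, the same box on the other strand) and the letters searched for the CHR, which are TTTGAA or its variant TTCGAA, in either strand's reading (in Top2a the first also appears as TTCAAA). No annotated exon lies in these windows. Ccnb2 encodes cyclin B2 and its window lies at chr9:70421555-70421804 on the minus strand. Mki67 encodes Ki-67, the coat protein of mitotic chromosomes, with its window at chr7:135716380-135716629 on the minus strand. Top2a encodes the topoisomerase that untangles sister chromatids, with its window at chr11:99024190-99024439 on the minus strand. Mybl2, at chr2:163054385-163054634 on the plus strand, holds neither box and is shown as a contrast, a choice made after its values were seen.
Ccnb2: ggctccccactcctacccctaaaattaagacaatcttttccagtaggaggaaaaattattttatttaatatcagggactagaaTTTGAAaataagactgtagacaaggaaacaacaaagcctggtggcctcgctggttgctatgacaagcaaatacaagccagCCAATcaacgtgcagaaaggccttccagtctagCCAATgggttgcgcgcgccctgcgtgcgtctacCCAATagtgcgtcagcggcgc
Mki67: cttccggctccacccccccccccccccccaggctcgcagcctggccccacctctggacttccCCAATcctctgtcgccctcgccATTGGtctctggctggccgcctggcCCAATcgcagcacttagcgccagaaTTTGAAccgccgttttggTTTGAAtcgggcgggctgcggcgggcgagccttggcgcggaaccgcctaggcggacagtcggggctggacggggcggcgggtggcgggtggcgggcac
Top2a: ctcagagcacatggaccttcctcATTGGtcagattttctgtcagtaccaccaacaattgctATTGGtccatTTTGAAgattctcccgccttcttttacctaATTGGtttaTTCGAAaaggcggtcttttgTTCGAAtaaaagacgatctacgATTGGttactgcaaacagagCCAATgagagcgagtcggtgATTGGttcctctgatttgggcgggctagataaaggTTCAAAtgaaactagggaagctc
Mybl2: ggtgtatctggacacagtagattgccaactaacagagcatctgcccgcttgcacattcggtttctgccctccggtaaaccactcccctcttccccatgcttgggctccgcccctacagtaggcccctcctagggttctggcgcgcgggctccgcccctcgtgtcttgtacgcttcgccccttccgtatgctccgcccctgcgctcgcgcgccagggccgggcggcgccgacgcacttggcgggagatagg

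RefSeq gave a promoter for 40 of the 49 members, counting 250 bases before to 50 after the start and both strands. Of these, 31 (77.5%) held CCAAT and 31 (77.5%) a CHR spelling, against 41.1% and 21.7% of the promoters of all 27025 genes in the table. Both occurred in 28 members (70%), against 8.61% of all genes, 15.2% of 33 DNA replication genes and 25% of 104 other mitosis genes. A pair of CCAAT runs 25 to 45 bases apart on 1 strand stood in 15 members (37.5%), against 3.45% of all genes. The 69 CCAAT runs had their median first base at -67 from the start. The 41 CHR runs sat closer, with a median at -5 and 29 of them within 50 bases of the start. Neither box was found for Mad2l1, Pttg1, Birc5, Nuf2, Ncaph and Mybl2. For Pttg1 the GENCODE transcripts start upstream of the RefSeq start, so this window does not cover the region before them. These are matches of letters and say nothing of binding.

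**Figure D1:**
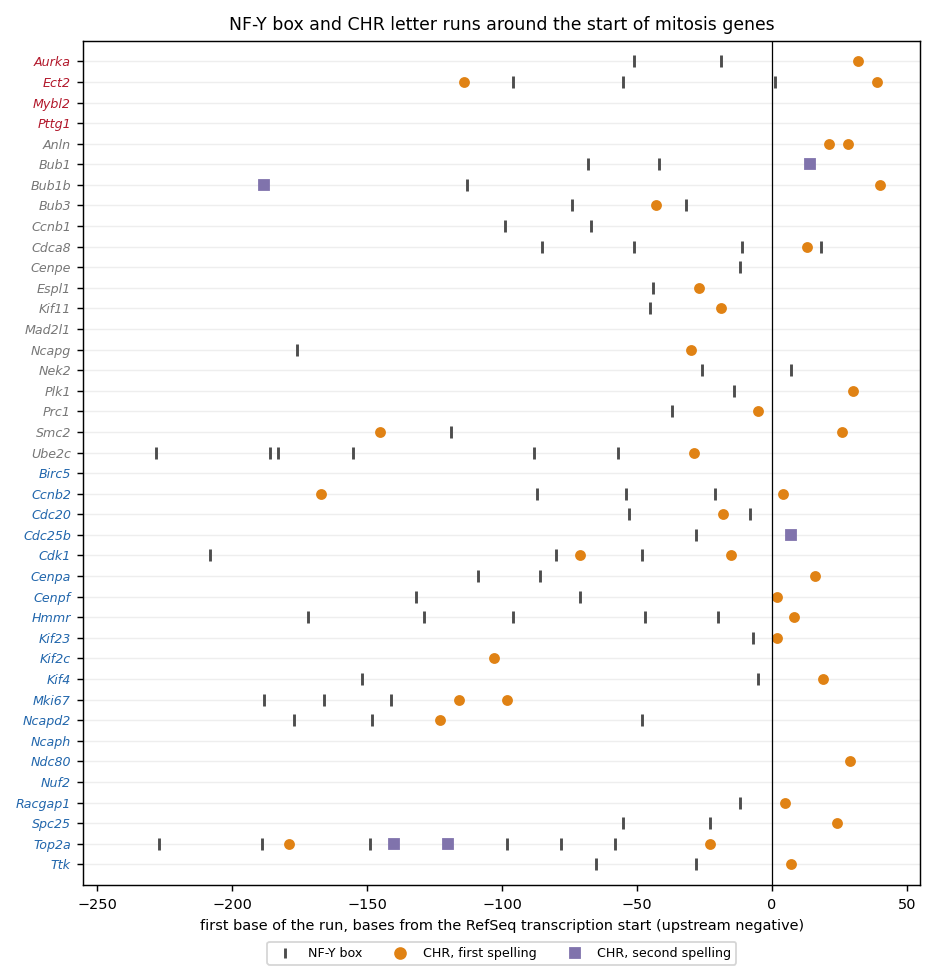
Positions of NF-Y box (CCAAT) and CHR letter runs around the RefSeq start of the 40 members in the promoter table; the x axis is the distance of the first base of each run from the start in bases, and names are red for genes that rose, blue for those that fell and grey for those not called. CHR runs gather near 0, and the rows of Mybl2, Pttg1, Birc5, Nuf2, Ncaph and Mad2l1 are empty.

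Across the 3 labelled pairs, 24 of the 49 members fell in the libraries labelled deleted, 4 rose and 21 were not called (edgeR, Benjamini-Hochberg adjusted p under 0.05 over all 15933 genes tested). Of all genes tested, 24.6% fell and 25% rose, 49.6% in all. Among the 7109 genes in the members' range of mean level (17.9 to 1105 CPM), 30.7% fell and 31.2% rose. The median log2 difference of the members was -0.11, that of all genes 0.02. The falls were small, from -0.53 to -0.11 on the log2 scale, and 27 of the 28 called members changed by less than 1.5-fold. In bulk RNA, fewer cells in mitosis and less RNA per cell cannot be told apart. The members' summed level was 9614, 9660 and 9696 CPM in the libraries labelled deleted and 10573, 10236 and 10621 CPM in those labelled vehicle, a ratio of 0.922 with no overlap. For 31 members all 3 libraries labelled deleted lay below all 3 labelled vehicle, and for 5 they lay above (background 27.8% and 27.7% of genes). With limma on log2(TPM + 1), 2 members fell and 1 rose, where 6.3% of 13850 genes fell and 10.3% rose, so both counts lie below the background. With the DESeq2 Wald test, 20 fell and 2 rose, against 15.6% and 15.9% of all genes.

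**Figure D2:**
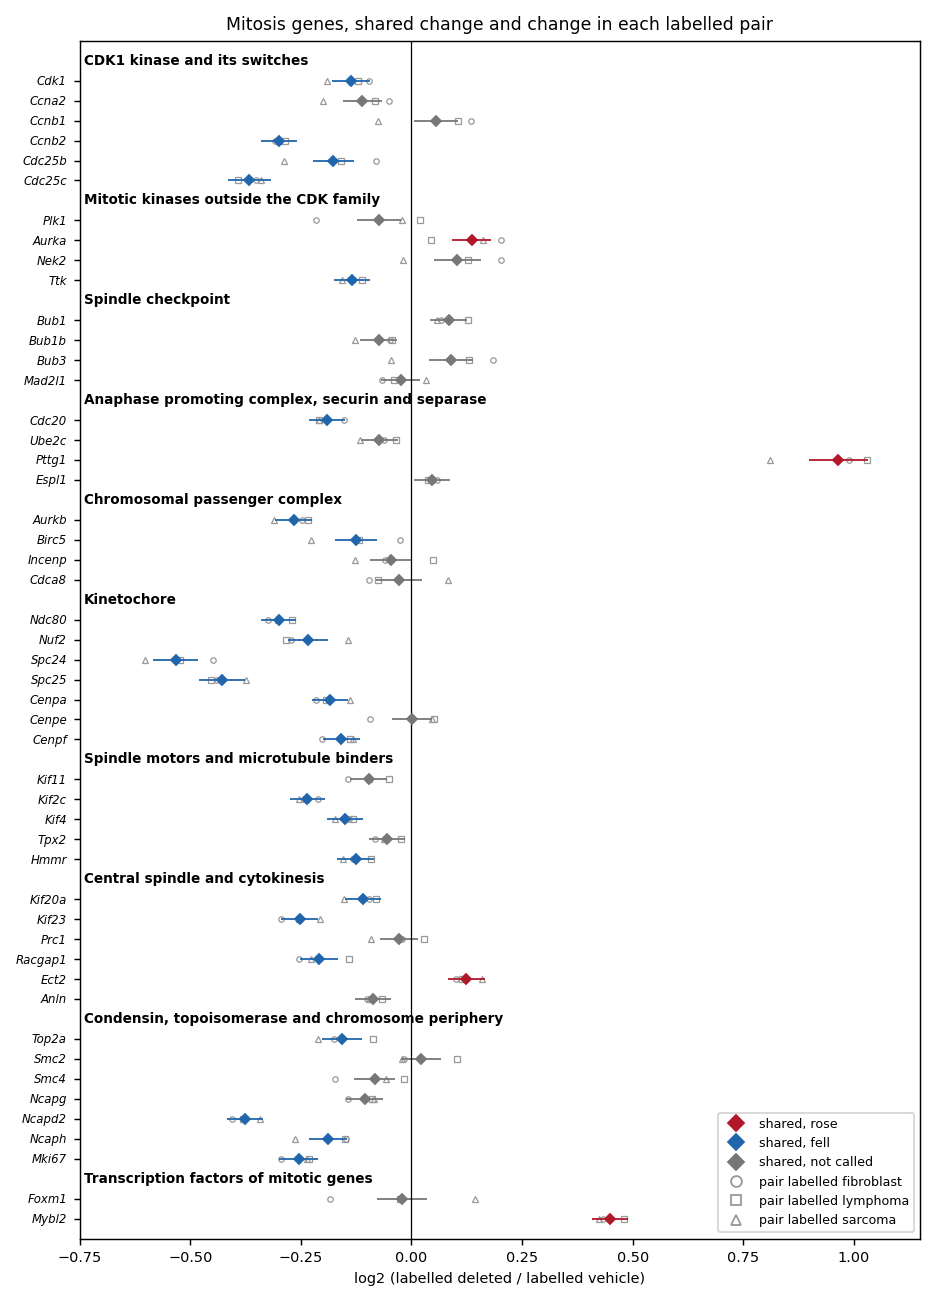
Log2 ratio of labelled deleted over labelled vehicle for each of the 49 members, grouped by step; diamonds are the shared value with its SE over the 3 pairs (red rose, blue fell, grey not called) and open symbols the 3 labelled pairs. Most diamonds lie left of 0, while Pttg1 stands far right at 0.96 and Mybl2 at 0.45.

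Securin, encoded by Pttg1, was the member with the largest difference. It is the inhibitor that holds separase until anaphase. Pttg1 (ENSMUSG00000020415.16, GRCm38 chromosome 11, 43420250 to 43426251) was at 23.7, 23.0 and 24.5 CPM in the libraries labelled deleted (in the order fibroblast, lymphoma, sarcoma, kept throughout) and at 11.7, 11.0 and 13.7 CPM in those labelled vehicle. The arms did not overlap, and the lowest level with 4-OHT was well above the highest with vehicle. It rose by 0.96 on the log2 scale (SE 0.07, adjusted p = 3.77e-07). Within the pairs the ratio was 2.03 (95% Clopper-Pearson interval 1.78 to 2.31, counting error only), 2.09 (1.82 to 2.39) and 1.78 (1.59 to 2.001). Of its 8 quantified transcripts, the 4 with a coding length of 600 bases took 83.0% to 97.7% of its counts. That class held 645, 509 and 629 estimated counts in the libraries labelled deleted and 317, 319 and 437 in those labelled vehicle, so it carried the difference too. The 2 transcripts of 567 bases held 49.2, 72.5 and 41.8 against 16.0, 0.0030 and 0.00040 estimated counts, a split that kallisto makes by likelihood between overlapping transcripts.

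None of the other 3 genes of the anaphase step was called as risen. Espl1 encodes separase, the protease that securin blocks. It stood at 176 ± 0.890 CPM (SD, n = 3) in the libraries labelled deleted and 171 ± 1.89 CPM (SD, n = 3) in those labelled vehicle. It was not called (log2 difference 0.05), though its arms did not overlap (175.9, 177.3 and 175.7 against 169.0, 172.8 and 170.5 CPM). The ratio of Pttg1 to Espl1 counts within a library was 0.135, 0.130 and 0.139 with 4-OHT and 0.0692, 0.0639 and 0.0805 with vehicle. It was thus 1.90 times as high with 4-OHT. This ratio, like the other 5 within-library ratios below, was chosen after the values were seen, so all 6 are given as descriptions with no test, and the choice fixes that their arms do not overlap. Cdc20 activates the anaphase promoting complex (chromosome 4, 118432901 to 118437352). It was at 143.6, 136.2 and 143.1 CPM with 4-OHT and 159.8, 157.6 and 165.4 CPM with vehicle, lower in all 3 pairs, and fell by 0.19 (SE 0.04, adjusted p = 0.00256). Its gene overlaps Elovl1 on the opposite strand, which was at 20.6 CPM and fell by 0.24. Ube2c, the ubiquitin-conjugating enzyme of the complex, was not called at -0.07.

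B-MYB and FOXM1, the transcription factors that activate late cell cycle genes, differed: Mybl2 rose and Foxm1 was not called. Mybl2 (chromosome 2, 163054687 to 163084688) was at 73.7, 74.0 and 74.2 CPM in the libraries labelled deleted and 54.4, 52.9 and 55.1 CPM in those labelled vehicle. Both arms were tight and far apart, and it rose by 0.45 (SE 0.04, adjusted p = 3.53e-06). Foxm1 was at 75.3, 76.7 and 86.5 CPM with 4-OHT and 85.6, 78.0 and 78.3 CPM with vehicle. Its arms overlapped, the log2 difference was -0.02 (not called), and it had the widest spread between pairs of all members, 0.33 on the log2 scale. The Mybl2 to Foxm1 ratio of counts was 0.978, 0.965 and 0.858 with 4-OHT against 0.636, 0.677 and 0.704 with vehicle.

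Of the 7 kinetochore members, 6 fell and none rose, where 24.6% of all genes tested fell and 25% rose. This did not extend to kinetochore genes at large. Of 26 further centromere and kinetochore genes outside the members, 7 fell (26.9%) and 3 rose. The Ndc80 complex, the rod that holds spindle microtubules, fell in all 4 subunits with a median of -0.36. Spc24, at its inner end (chromosome 9, 21755442 to 21760303), had the largest fall of all members. It was at 28.9, 27.4 and 27.7 CPM in the libraries labelled deleted and 39.6, 39.6 and 42.3 CPM in those labelled vehicle, and it fell by 0.53 (SE 0.05, adjusted p = 5.61e-06). Its partner Spc25 fell by 0.43 (23.9 ± 0.460 against 32.2 ± 0.345 CPM, SD, n = 3, adjusted p = 3.85e-05). The outer subunits Ndc80 and Nuf2 fell by 0.30 and 0.23. Cenpa, the histone variant that marks the centromere, fell by 0.18, and Cenpf, of the outer corona, by 0.16. Cenpe, the kinetochore motor that carries chromosomes to the spindle equator, was the exception at 0.00 (517 ± 15.3 against 516 ± 17.9 CPM, SD, n = 3, adjusted p = 0.988). Within each library, the Spc24 to Cenpe ratio of counts was 0.0522 to 0.0576 with 4-OHT and 0.0740 to 0.0822 with vehicle.

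**Figure D3:**
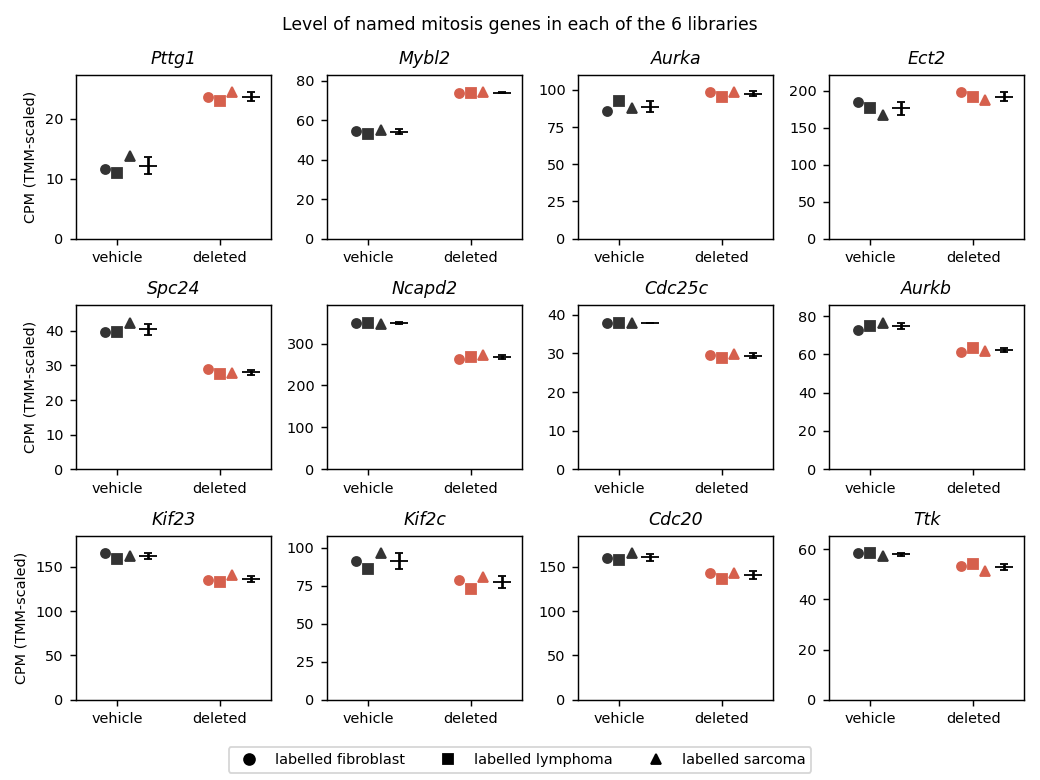
CPM (TMM-scaled, y axis from 0) of 12 named members in each library, by arm; symbols mark the cell type label, and the dash with bars is the mean ± SD of the 3 libraries of an arm. Pttg1 and Mybl2 lie higher with 4-OHT, Aurka and Ect2 slightly so, and the other 8 genes lower, with no overlap between the arms in any panel. All 12 were picked among called members, a choice that favours arms without overlap. Of all genes tested, 27.7% lay higher and 27.8% lower with 4-OHT without overlap.

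The 4 genes listed under the spindle checkpoint were not called in either direction, where 49.6% of all genes tested were called. Ttk, which encodes a further checkpoint kinase, was listed with the mitotic kinases and fell by 0.13. Bub1, a kinase at the kinetochore, was at 0.08, and Bub3, its partner, at 0.09. Bub1b, which encodes the checkpoint protein BubR1, was at -0.07, and Mad2l1, which encodes the MAD2 that binds Cdc20, at -0.02. Their adjusted p values ran from 0.117 to 0.681. Bub3 passed without the pair labelled sarcoma (0.16, adjusted p = 0.0192), and Bub1 when protein-coding genes alone were tested (0.10, adjusted p = 0.0274).

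Of the 6 genes of CDK1 and its switches, 4 fell, where 24.6% of all genes tested fell. Cdc25c, the phosphatase that activates CDK1, was at 29.6, 28.7 and 29.9 CPM in the libraries labelled deleted and 37.99, 37.84 and 37.97 CPM in those labelled vehicle. The arms were far apart against their spread, and it fell by 0.37 (SE 0.05, adjusted p = 6.90e-05). Ccnb2 fell by 0.30 (132 ± 3.46 against 162 ± 3.63 CPM, SD, n = 3, adjusted p = 9.67e-05), Cdc25b, which encodes another phosphatase of that family, by 0.18, and Cdk1 by 0.14. The Cdc25b call was lost without sarcoma (adjusted p = 0.0586), and the Cdk1 call without lymphoma (0.0828) or sarcoma (0.0751). Ccna2, which encodes cyclin A2, was not called at -0.11 (adjusted p = 0.058), though its arms did not overlap, and it passed without fibroblast (-0.16, adjusted p = 0.0138). Cyclin B1 was not called where cyclin B2 fell. Ccnb1 was at 236.9, 238.5 and 228.9 CPM with 4-OHT and 215.7, 221.5 and 241.1 CPM with vehicle, with overlap (0.06, not called). The Ccnb2 to Ccnb1 ratio of counts within a library was 0.540 to 0.588 with 4-OHT and 0.688 to 0.735 with vehicle, 0.782 times as high.

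The Aurora kinases went opposite ways. Aurora A, at centrosomes and spindle poles, is encoded by Aurka (chromosome 2, 172356190 to 172370535). It was at 98.5, 95.4 and 98.5 CPM in the libraries labelled deleted and 85.6, 92.6 and 88.0 CPM in those labelled vehicle, and it rose by 0.14 (SE 0.04, adjusted p = 0.0238). Leaving out the fibroblast pair ended that call (0.08, adjusted p = 0.231), and so did leaving out the sarcoma pair (0.12, adjusted p = 0.0847). Aurora B, encoded by Aurkb (chromosome 11, 69045647 to 69051664), is the kinase of the chromosomal passenger complex, which corrects faulty attachments. It was at 61.4, 63.5 and 61.7 CPM with 4-OHT and 73.0, 74.9 and 76.6 CPM with vehicle, and it fell by 0.27 (SE 0.04, adjusted p = 0.000232). The Aurkb to Aurka ratio of counts within a library was 0.623 to 0.666 with 4-OHT and 0.809 to 0.870 with vehicle.

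In the rest of the passenger complex, Birc5, which encodes survivin, fell by 0.13 (adjusted p = 0.0432), a call lost without lymphoma (adjusted p = 0.120) and without sarcoma (0.238). The scaffold gene Incenp was at -0.05 and Cdca8, which encodes borealin, at -0.03, neither called. Among the other mitotic kinases, Ttk, which encodes the checkpoint kinase MPS1 (chromosome 9, 83834689 to 83872389), was at 53.2, 54.1 and 51.4 CPM with 4-OHT and 58.4, 58.5 and 57.4 CPM with vehicle. It fell by 0.13 (SE 0.04, adjusted p = 0.017), and the call was lost without lymphoma (adjusted p = 0.0631). Plk1, the Polo-like kinase, was at -0.07, and Nek2, a centrosome kinase, at 0.10, neither called. Nek2 passed without sarcoma (0.17, adjusted p = 0.0275).

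Of 5 genes of spindle motors and microtubule binders, 3 fell and none rose (24.6% and 25% of all genes tested). Kif2c encodes MCAK, a kinesin that takes microtubules apart at centromeres (chromosome 4, 117159639 to 117182639). It was at 78.8, 72.8 and 80.7 CPM in the libraries labelled deleted and 91.2, 86.0 and 96.3 CPM in those labelled vehicle, and it fell by 0.24 (SE 0.04, adjusted p = 0.000452). Kif4, a chromosome-bound kinesin, fell by 0.15 and Hmmr, a spindle pole binder, by 0.13. The Hmmr call was lost without lymphoma (adjusted p = 0.0752) and without sarcoma (0.0717). Kif11, the motor that pushes spindle poles apart, was at -0.10 and Tpx2, which activates Aurora A, at -0.06, neither called.

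Central spindle and cytokinesis genes split. The centralspindlin pair fell, Kif23 by 0.25 and Racgap1 by 0.21. Kif23, the motor of that complex (chromosome 9, 61915905 to 61946774), was at 134.8, 133.4 and 140.6 CPM with 4-OHT and 165.4, 159.2 and 162.4 CPM with vehicle (SE 0.04, adjusted p = 0.000429). Ect2, the exchange factor that centralspindlin recruits to start the cleavage furrow, instead rose (chromosome 3, 27097222 to 27153878). It was at 197.8, 191.1 and 186.5 CPM with 4-OHT and 184.6, 176.6 and 167.0 CPM with vehicle, a narrow gap, with a log2 difference of 0.12 (SE 0.04, adjusted p = 0.0274). The Ect2 call was lost whichever pair was left out (adjusted p = 0.0846 to 0.112). Kif20a, a kinesin of the central spindle, fell by 0.11 (adjusted p = 0.0439), a call lost without lymphoma (adjusted p = 0.124) and without sarcoma (0.114). Prc1, which bundles its microtubules, was at -0.03 and Anln, which encodes the furrow protein anillin, at -0.09, neither called.

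Of 7 genes of chromosome structure, 4 fell, where 24.6% of all genes tested fell. Ncapd2, a regulatory subunit of condensin I (chromosome 6, 125168007 to 125191701), was at 264.3, 268.8 and 273.6 CPM in the libraries labelled deleted and 350.0, 350.0 and 347.0 CPM in those labelled vehicle. It fell by 0.38 (SE 0.04, adjusted p = 1.68e-05). Ncapd2 hosts Scarna10, a small nuclear RNA of Cajal bodies at 279 CPM, which fell by 0.33. Ncaph, which encodes the kleisin of condensin I, fell by 0.19. The remaining subunit genes were not called: Ncapg was at -0.11, and the ATPase genes Smc4 and Smc2 were at -0.08 and 0.02. The Ncapd2 to Smc2 ratio of counts was 1.85 to 1.94 with 4-OHT and 2.42 to 2.63 with vehicle. Mki67 fell by 0.25 (909, 943 and 1010 against 1116, 1107 and 1190 CPM) and Top2a by 0.16 (1044, 1053 and 1035 against 1180, 1118 and 1198 CPM).

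**Figure D4:**
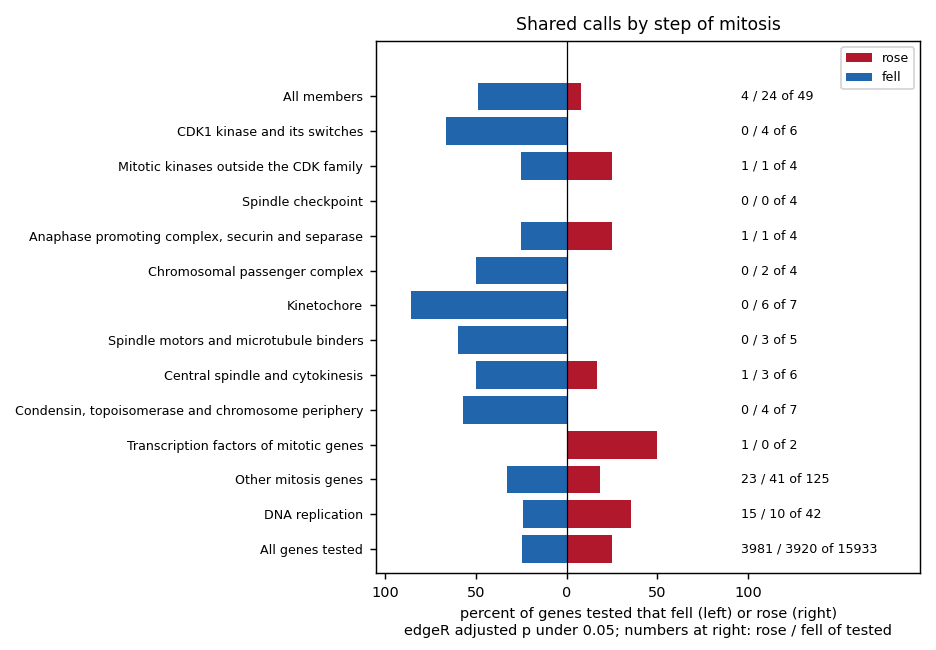
Percent of genes tested that fell (blue, left) or rose (red, right) in each step of mitosis, in the other mitosis genes, in DNA replication genes and in all genes tested, with the counts at the right. Kinetochore members reach 6 of 7 fallen, where 24.6% of all genes tested fell. The spindle checkpoint list, which leaves out Ttk, has no bar.

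Reads of overlapping genes can be shared where their quantified sequences overlap. Of the 49 members, 28 overlap another annotated gene, and 12 overlap one at 1 CPM or more. Ccna2 lies against Exosc9 on the opposite strand (55.6 CPM, which rose by 0.26), and Kif20a against Cdc23 (71.8 CPM, log2 difference -0.10, not called). These overlaps are of whole gene spans, introns included. Whether the quantified sequences overlap was not examined, and whether strand was used in counting is not stated. Values of these members are uncertain to that extent.

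The promoter boxes were spread over the calls. A CHR spelling stood in 17 of the 20 members that fell and have a promoter in the table, 12 of the 16 not called and 2 of the 4 that rose. Aurka and Ect2 carry both boxes, and Mybl2 and Pttg1 neither. Birc5, Nuf2 and Ncaph, which fell, and Mad2l1, which was not called, also carry neither.

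Levels were compared between genes per kilobase of the longest coding sequence, in the 3 libraries labelled vehicle. On that scale Top2a was highest at 254 ± 9.13 CPM per kilobase (SD, n = 3), followed by Ccna2 at 236 ± 7.43 and Ube2c at 234 ± 18.7. Smc4 at 225 ± 12.2 and Cdk1 at 215 ± 3.91 came next, and from Ccna2 to Cdk1 neighbours differed by less than the larger SD of the pair. Pttg1 was lowest at 20.3 ± 2.34, below Ttk at 23.3 ± 0.237 and Mybl2 at 25.6 ± 0.553. With 4-OHT, Pttg1 was at 39.5 CPM per kilobase, and Mybl2 at 35.0. The order differs on the deposited TPM summed per gene, which rests on effective lengths and on all transcripts, short ones included. There Cenpa came first at 519 ± 18.6 TPM (SD, n = 3), then Smc4 at 427 ± 30.1, Racgap1 at 170 ± 22.2 and Ube2c at 146 ± 11.4, with Top2a 7th at 113 ± 4.49. At the low end were Espl1 at 11.8 ± 0.0654, Nek2 at 13.0 ± 0.613 and Pttg1 at 13.2 ± 2.75 TPM.

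Within each labelled pair there is 1 library per arm and no test. At least 1.2-fold lower with 4-OHT were 9 members in the pair labelled fibroblast (background 18.5% of genes at or above 5 CPM), 7 in lymphoma (18%) and 9 in sarcoma (21.3%). In none of the pairs did the members' share exceed the background. At least 1.2-fold higher were 2 members in each pair (background 19.2%, 18.9% and 21.3%), Pttg1 and Mybl2. The median log2 ratio of the members was -0.13, -0.08 and -0.13, with all genes at 0.00 in each. The counting interval of the ratio lay below 1 for 33, 29 and 35 members and above 1 for 9, 9 and 7. In sign, 32 members were lower in all 3 pairs, 6 higher in all 3 and 11 mixed. These interval and sign counts cover the members alone, with no share of all genes beside them. By pair, 40, 35 and 39 of the 49 members were lower. Of genes at or above 1 CPM, 6993 of 13820, 6889 of 13856 and 6860 of 13834 were lower. On the deposited TPM the lymphoma median was 0.056, where all genes had a median of 0.13.

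Whether the arm difference in the pair labelled lymphoma departed from the other pairs was tested as an interaction. None of the 49 members was called (edgeR), against 10 of 15933 genes (0.0628%). At an unadjusted p under 0.05 there were 0 members and 494 genes, and with DESeq2 size factors in that fit 0 members. The lowest member p was 0.194, for Incenp. The fit leaves 1 residual degree of freedom, and a p that misses the threshold does not show that the pairs acted alike.

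Outside the members, 125 other mitosis genes were taken from a list of complexes, and 23 rose (18.4%) and 41 fell (32.8%), with a median of -0.04, beside 25% and 24.6% of all genes. Motor, spindle and cytokinesis genes fell for 11 of 20 and rose for 2, and subunits and regulators of the anaphase promoting complex fell for 7 of 17 and rose for 1. Further centromere and kinetochore genes, outer kinetochore genes included, fell for 7 of 26 (26.9%), near the share of all genes, and rose for 3. Among them Mis12 rose by 0.26, Pmf1 fell by 0.13, and Knl1, Zwint, Dsn1 and Nsl1 were not called. Centrosome, gamma tubulin and augmin genes gave 7 falls and 6 rises of 21, checkpoint genes 3 and 4 of 16, and cohesin and condensin II genes 4 and 2 of 14. With limma on TPM, 3 of the 125 rose and 2 fell, fewer in both directions than the shares of all genes given above for that test. The risen count was 15 with the DESeq2 Wald test (15.9% of all genes rose) and 15 without the pair labelled lymphoma (20.4%).

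The DREAM and MuvB genes gave 5 rises and 2 falls of 11, where 25% of all genes tested rose and 24.6% fell. Lin54, the subunit that reads the CHR, was at 56.7, 56.7 and 56.5 CPM in the libraries labelled deleted and 33.4, 32.9 and 33.1 CPM in those labelled vehicle. It rose by 0.77 (SE 0.04, adjusted p = 5.59e-08), with hardly any spread inside an arm. Rbl1, the pocket protein p107, was at 72.3, 69.9 and 76.7 CPM with 4-OHT and 57.9, 55.1 and 54.7 CPM with vehicle, and rose by 0.38 (SE 0.05, adjusted p = 3.25e-05). Lin37, another MuvB subunit, was at 5.33, 5.86 and 6.25 against 8.04, 7.39 and 8.55 CPM and fell by 0.46 (SE 0.09, adjusted p = 0.00144). In both, the arms did not overlap, as in 27.7% (higher) and 27.8% (lower) of all genes tested.

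Among the other mitosis genes, 3 more had large differences. Cenpj, a centriole gene, was at 25.4, 25.97 and 27.7 CPM with 4-OHT and 20.6, 21.7 and 19.0 CPM with vehicle, and rose by 0.37 (SE 0.07, adjusted p = 0.000654). Haus1, of the augmin complex that branches spindle microtubules, was at 18.7, 18.6 and 19.6 against 28.1, 27.9 and 26.2 CPM and fell by 0.53 (SE 0.06, adjusted p = 2.13e-05), while Atp5a1, which overlaps it on the opposite strand at 816 CPM, fell by 0.17. Cenpp, of the inner kinetochore, was at 11.1, 12.7 and 11.5 against 19.1, 17.8 and 18.7 CPM and fell by 0.66 (SE 0.07, adjusted p = 2.04e-05). The arms of these 3 did not overlap either, which their choice as the largest called differences favours. Aspn, Omd and Ogn lie inside the span of Cenpp on the opposite strand and fell by 3.90, 2.24 and 2.19. Their reads could be mixed with those of Cenpp only where the quantified sequences overlap, which was not examined. DNA replication genes gave 15 rises (35.7%) and 10 falls (23.8%) of 42 (median 0.04), and their summed level was 1.05 times that with vehicle. Of all genes tested, 25% rose and 24.6% fell. By pair, the median log2 ratio of the replication genes was 0.09 in fibroblast and 0.09 in lymphoma, but -0.01 in sarcoma.

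Cdkn1a, which encodes the CDK inhibitor p21, was at 4.44, 4.70 and 4.26 CPM with 4-OHT and 2.04, 1.49 and 0.903 CPM with vehicle. It rose by 1.63 (SE 0.19, adjusted p = 2.51e-05) from a low level.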

How the data were processed

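Total RNA libraries, made with a strand-specific kit after ribosomal RNA depletion, were quantified by the authors; the submitters' processing notes name kallisto 0.43.0 and GRCm38. The deposited files give estimated counts and TPM per transcript. The sources used here give neither the strand setting nor the transcript set. By transcript identifier, 75049 of 76055 targets matched GENCODE M21. Of protein-coding targets 94.1% had exactly the annotated coding length, so most values leave out untranslated regions. Targets without a match held 0.393% to 0.410% of counts and were left out. Estimated counts were summed per gene and rounded.

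Depth was 26243064 to 37517726 estimated counts per library, and 3 counts equal 0.0797 to 0.113 CPM. edgeR 4.0.16 (R 4.3.3; two-sided quasi-likelihood test, TMM, genes kept by filterByExpr on the arm, adjusted p under 0.05 by Benjamini-Hochberg) tested all 6 libraries with the cell type label as block, on 2 residual and 9.23 prior degrees of freedom. SE is the absolute log2 difference divided by the square root of F. Labelled pairs served as replicates, and nothing says that libraries came from separate cultures, so the p-values reflect only spread among these libraries, which may be technical. The cell type label pairs the libraries, and deviations within pairs correlated at 0.0324, 0.139 and 0.141. Pairs got ratios of TMM-scaled CPM (medians on CPM + 0.5, genes at or above 1 CPM) with counting intervals. Alternatives used DESeq2 1.42.0 and limma 3.58.1. Summaries used Python 3.11.15 and scipy 1.17.1. Members and lists were chosen with earlier results of these data known. Within each step, the member with the largest called difference in each direction and every risen member are given in every library, besides Mdm2, Cdkn1a and the 3 largest called differences in each direction among other mitosis genes. The interaction fit had 1 residual degree of freedom.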

Additional observations from a re-analysis of the deposited data

Results flagged for a closer look

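In 3 members the labelled pairs moved opposite ways, with counting intervals of the ratio that lay on both sides of 1. The difference of the fibroblast or the sarcoma pair from the others was not tested. That of the lymphoma pair from the others was tested as an interaction, where edgeR gave an unadjusted p of 0.518 for Ccnb1, 0.528 for Cenpe and 0.959 for Foxm1. The ratio of libraries labelled deleted over vehicle for Ccnb1 (cyclin B1) was 1.10 in the pair labelled fibroblast and 1.08 in lymphoma, but 0.949 in sarcoma. For Cenpe, the kinetochore motor, it was 0.937 in fibroblast against 1.04 in lymphoma and 1.03 in sarcoma. For Foxm1 it was 0.880 in fibroblast, 0.982 in lymphoma, whose interval holds 1, and 1.10 in sarcoma. None of the 3 genes was called across the pairs, and no count over all genes stands beside these 3.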

How the results depend on the processing

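The calls that held under every alternative run were the rise of Pttg1 and the falls of Spc24 and Spc25. Leaving out limma on TPM, Mybl2 and 18 of the 24 falls held as well, and the same 18 held when each labelled pair was left out in turn. These counts cover the members alone. How large a share of all called genes held under the same runs was not counted, so they do not set the members apart. Risen members numbered 2 with the DESeq2 Wald test (15.9% of all genes rose) and 2 with no filter on low counts (16.4%). With no filter, 27 members fell (18.3% of all genes), as 3 uncalled members gained a call. With limma on log2(TPM + 1), 1 member rose (10.3%) and 2 fell (6.3%). A mean-variance trend in limma, an alternative chosen after seeing the data, gave 1 and 3 (10.6% and 6.49%). Of other mitosis genes, 15 rose with DESeq2, 3 rose and 2 fell with limma, and 3 and 2 with the trend. Of replication genes, 6 rose and 0 fell with limma, and 5 and 0 with the trend. Over all genes, DESeq2 called 2541 higher and 2488 lower, limma 1430 and 872 (62.1% higher, against 50.4% in edgeR), and the trend 1475 and 899. Without each pair in turn, risen members ranged from 2 (without fibroblast) to 4, where 20.4% to 22.2% of all genes rose. Fallen members ranged from 19 to 25, where 19.9% to 24.7% of all genes fell. The risen count of other mitosis genes went as low as 15 (without lymphoma). The cause of these differences was not tested.

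Without the replicate block for the cell type label, 3 members rose and 25 fell (23.5% and 23.7% of all genes). At a 1.5-fold limit, 1 member was higher in each pair, and 0, 0 and 1 were lower (fibroblast, lymphoma, sarcoma). Of all genes, 6.36%, 6.26% and 6.85% were higher and 3.99%, 4.21% and 4.85% lower at that limit. On the deposited TPM, the lymphoma pair had 4 members higher and 2 lower at 1.2-fold (35.7% and 11.3% of all genes) and a median of 0.056, and the arms did not overlap for 14 members lower with 4-OHT (19.4% of all genes).

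Of the uncalled members, 7 changed sign near 0: Ccnb1 (-0.0075 without fibroblast to 0.12 without sarcoma), Mad2l1 (0.0021 with limma and with the trend), Cdca8 (0.024 with both), Cenpe (-0.0019 with DESeq2 size factors and with DESeq2, -0.025 with no filter, and -0.024 without lymphoma to 0.026 without fibroblast), Prc1 (0.0058 with limma and with the trend, -0.057 without lymphoma to 0.0018 without sarcoma), Smc2 (-0.0044 with no filter, -0.019 without lymphoma to 0.042 without sarcoma) and Foxm1 (-0.11 without sarcoma to 0.038 without fibroblast). Pttg1, with 327 to 698 counts the least covered member, had the largest SE (0.07), and for Mad2l1 and Cdca8 the counting interval of the ratio held 1 in every pair, so no difference was detectable there at this depth. The number of libraries, 1 per group, limits the precision.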
